A study of Mus musculus with 2 samples.

Results

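The expression of 10 genes of the fibroblast growth factor (FGF) system was followed through 2 single cell RNA libraries of the embryonic mouse forebrain. They are the ligand genes *Fgf8*, *Fgf17*, *Fgf18* and *Fgf15*, and 6 genes that are known targets or brakes of FGF signalling, *Spry1*, *Spry2*, *Il17rd*, *Dusp6*, *Etv4* and *Etv5*. The genes were chosen by their symbols, but with earlier results of these data known. All 10 were found among the 28001 genes listed for the first library and the 32286 listed for the second. Secreted FGFs bind receptor tyrosine kinases on nearby cells and switch on the Ras and MAP kinase cascade. The cascade raises transcription of the ETS factors *Etv4* and *Etv5* and of genes whose products then hold it back, a negative feedback. In the early forebrain the rostral midline, from which the septum arises, is known as a source of FGF8, FGF17 and FGF18 that patterns the telencephalon along its rostral to caudal axis.

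The first library, called septal explants here, was pooled from explants that took in the septum of 8 *PGKCre;Rosa26YFP* embryos at E11.5 and 4 *Dbx1Cre;Rosa26tdTomato* embryos at E12.5, each from 2 litters. The *Pgk* promoter drives Cre in most cell types, so that *YFP* was carried by the E11.5 embryos, whereas *tdTomato* marks the *Dbx1* lineage of the E12.5 embryos. The second, called telencephalic vesicle, was pooled from the vesicles of 3 wild-type embryos labelled E12 (E11.5 to E12 in the methods), from 2 litters. Both are labelled wild-type, C57BL/6J and embryonic brain, and neither had a treatment. Each library stands for its condition once, whose embryos were pooled without a tag, so that no value has a replicate check and no significance test was made.

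In these droplet libraries each captured transcript carries a unique molecular identifier (UMI), read near the 3′ end of the transcript. After filtering, 5365 of 5827 barcodes were kept in the septal explants at a median of 12856 UMIs, and 11595 of 14283 in the telencephalic vesicle at a median of 8989 UMIs. The libraries shared 1 barcode. A level is given as CPM, the UMIs of a gene per 1000000 UMIs of all genes, summed over the cells of a class, with an exact Poisson 95% interval. All intervals below cover counting error only, not the spread between embryos, and would be wider with it. The kits and pipelines differed, so that levels were not compared between the libraries, and capture differs between transcripts, so that levels were not compared between genes.

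Cells were divided into classes by marker genes, none of which is an FGF gene. Non-neural cells and basal, hem and *Nkx2-1* progenitors were gated first and could not enter the classes that followed. Of the rest, a septal progenitor had more progenitor than neuronal UMIs, at least 1 UMI of *Six3* and at least 10 UMIs of *Zic* genes and *Six3* per 10000. Such cells numbered 720 of the septal explants (13.4% of kept cells) and 444 of the telencephalic vesicle (3.83%). Medians over these cells for the other regional marker lists lay below their own of 14.4 and 15.2 septal UMIs per 10000. The highest was the pallial list, at 3.31 and 2.91. Hem UMIs, at 1.29 and 1.30, were limited by the order of the gates. Hem progenitors had median septal scores of 9.99 and 10.04, near the threshold, and *Nkx2-1* progenitors of the septal explants 10.2. The class is a range of a score: 87 and 51 of its cells lay within 1 UMI per 10000 above the threshold, and 126 and 126 progenitors lay within 1 below it. *Fgf8* at this edge was 80.2 CPM just above and 85.5 CPM just below in the septal explants, and 13.1 and 23.0 CPM in the telencephalic vesicle.

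All members are protein-coding genes, and their positions are given on GRCm38 (mm10). *Fgf8* (ENSMUSG00000025219) is on the minus strand at chr19:45736798-45742915, *Fgf17* on the minus strand at chr14:70636203-70642268, *Fgf18* on the minus strand at chr11:33117430-33147400 and *Fgf15* on the plus strand at chr7:144896531-144900953. *Fgf15* overlaps 2 annotated antisense genes, Gm26793 and Gm39119, and *Spry1* overlaps 1, Gm42922. All lie on the opposite strand, and whether any reads there were counted for the wrong gene was not tested. The other 8 members overlap no annotated gene. Among the feedback genes, *Spry1* is at chr3:37639947-37644598 on the plus strand, *Spry2* at chr14:105891947-105896819 on the minus strand, *Il17rd* at chr14:27038941-27107286 on the plus strand and *Dusp6* at chr10:99263231-99267489 on the plus strand.

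ETS factors such as ETV4 and ETV5 bind DNA around the core GGAA. The bases before the start of 4 of the feedback genes followed below are shown. They were read 5′ to 3′ in the direction of transcription from RefSeq on GRCm38.p6, whose windows covered 6 of the 10 members, and capitals mark GGAA or its reverse complement TTCC.
Spry1, chr3:37639797-37639946, plus strand: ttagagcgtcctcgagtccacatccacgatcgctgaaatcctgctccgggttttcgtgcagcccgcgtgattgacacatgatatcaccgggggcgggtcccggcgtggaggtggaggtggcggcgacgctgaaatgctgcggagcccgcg
Spry2, chr14:105896820-105896969, minus strand: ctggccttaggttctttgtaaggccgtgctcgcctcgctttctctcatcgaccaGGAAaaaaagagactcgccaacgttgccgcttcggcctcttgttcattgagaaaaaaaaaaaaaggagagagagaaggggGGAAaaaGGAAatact
Il17rd, chr14:27038851-27038940, plus strand: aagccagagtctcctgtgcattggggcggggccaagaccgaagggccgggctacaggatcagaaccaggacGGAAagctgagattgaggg
Dusp6, chr10:99263081-99263230, plus strand: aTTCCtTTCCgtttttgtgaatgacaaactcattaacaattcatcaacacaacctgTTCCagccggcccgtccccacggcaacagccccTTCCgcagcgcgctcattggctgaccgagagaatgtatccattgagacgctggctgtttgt
The *Dusp6* window of 150 bases held 4 matches on either strand, the *Spry2* window 3 and the *Spry1* window 0. The *Il17rd* window also held 3, of which 1 lies in the stretch shown, since its last 60 bases fall in the annotated gene. The core is short: 80.8% of 32851 RefSeq windows of the same length held at least 1 match, 26.1% held 3 or more and 10.9% held 4 or more. The longer string CGGAA, which contains it, was matched 2 times in *Dusp6*, 2 times in *Il17rd* and 0 times in both *Spry* windows, where 4.77% of all windows held 2 or more. Of the windows not shown, that of *Fgf18* held 0 matches of either string, and those of *Etv5* held 0 and 1 of GGAA and 0 of CGGAA. A match is a description of letters and not a site of binding.

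The levels of the ligands were first set out by class, among the 12 classes with at least 50 cells in the septal explants and the 14 of the telencephalic vesicle. *Fgf8*, *Fgf17* and *Fgf18* were highest in septal progenitors in both libraries, with intervals that did not reach the next class. *Fgf8*, the best known organiser of the rostral telencephalon, stood at 532 CPM (95% interval 518 to 546) in septal progenitors of the septal explants. It was at 159 CPM in *Nkx2-1* progenitors and 112 CPM in hem progenitors, and 13.0 CPM (11.3 to 14.9) in pallial progenitors. *Fgf8* in the telencephalic vesicle was at 201 CPM (193 to 209) in septal progenitors, 38.5 CPM in hem progenitors, 13.8 CPM in *Nkx2-1* progenitors and 1.37 CPM (0.997 to 1.83) in pallial progenitors. The second place there was held by neurons of no named type, at 49.8 CPM (42.0 to 58.7).

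*Fgf17*, a close relative of *Fgf8*, was at 1194 CPM (1174 to 1215) in septal progenitors of the septal explants and at 494 CPM (476 to 512) in hem progenitors. The hem proper is the medial tissue next to the choroid plexus that is known for Wnt and BMP ligands. Only 116 of the 340 gated hem cells of the septal explants lay in a cluster that passed the hem gate. Their median septal score was 9.99, so that the label is loose there. Septal progenitors of the telencephalic vesicle held *Fgf17* at 340 CPM (329 to 350), and neurons of no named type at 70.5 CPM did not differ from hem progenitors at 61.8 CPM beyond their intervals. *Fgf18*, which belongs to the same subfamily, was at 46.6 CPM (42.6 to 50.8) and 37.0 CPM (33.5 to 40.7) in septal progenitors. Its next places were close together and overlapped, with *Nkx2-1* progenitors at 13.4 CPM, other neurons at 12.4 CPM and hem progenitors at 11.1 CPM in the septal explants.

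*Fgf15*, the mouse counterpart of human *FGF19*, followed another order. In the septal explants it was highest in *Nkx2-1* progenitors at 268 CPM (252 to 284) and in GABAergic neurons at 259 CPM (242 to 276), which overlapped, and septal progenitors followed at 182 CPM (174 to 190). It was low in hem progenitors (22.7 CPM) and pallial progenitors (19.6 CPM). In the telencephalic vesicle septal progenitors led at 114 CPM (108 to 121), ahead of *Nkx2-1* progenitors (57.2 CPM) and of progenitors of no named region (54.9 CPM), whose intervals overlapped. GABAergic neurons were at 16.9 CPM (14.1 to 20.1) in that library.

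**Figure D1:**
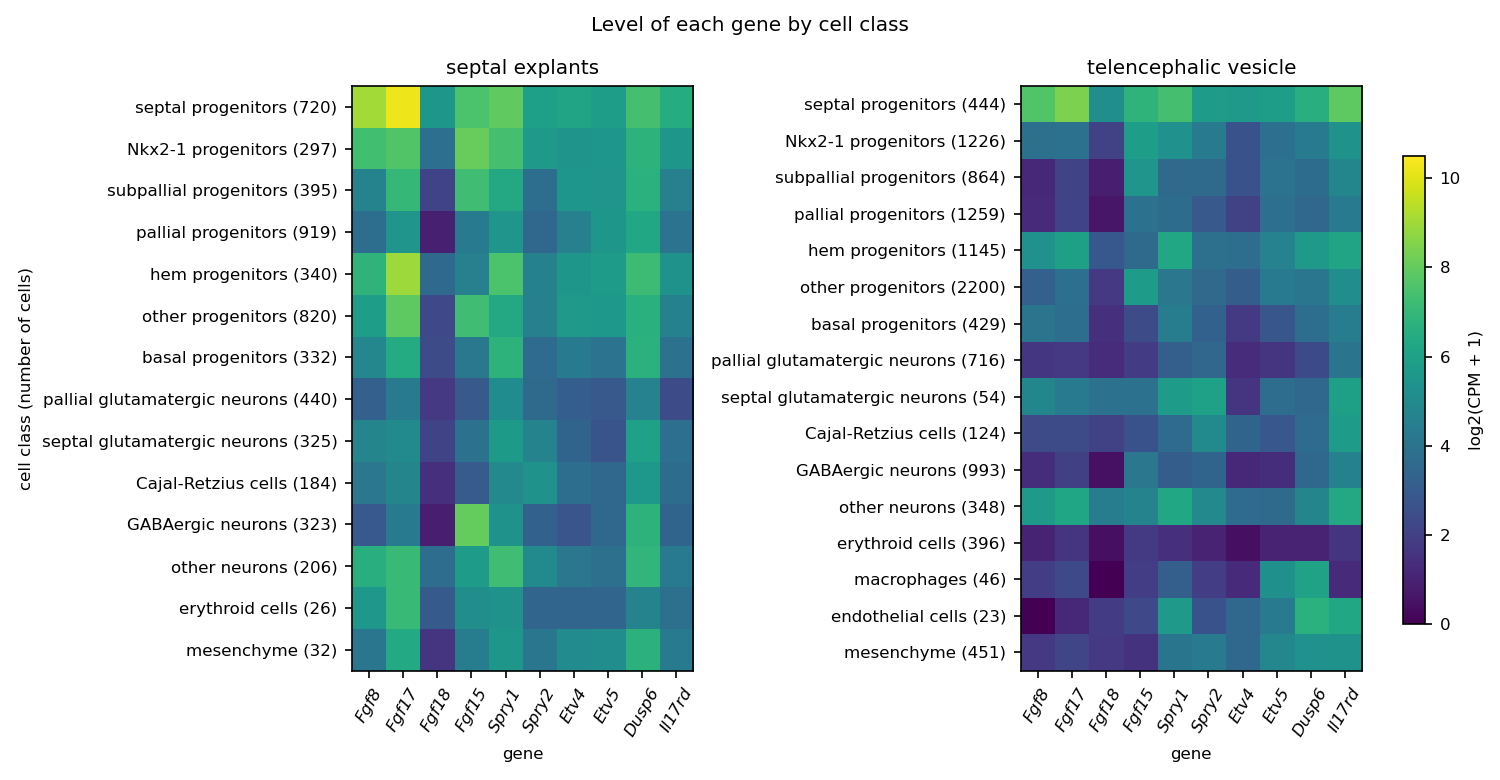
Colours give log2(CPM + 1) of the 10 genes (columns) in each cell class (rows, with the number of cells) of the septal explants (left) and the telencephalic vesicle (right). The top row, septal progenitors, is the brightest for *Fgf8*, *Fgf17* and *Fgf18* in both panels, at 532, 1194 and 46.6 CPM on the left and 201, 340 and 37.0 CPM on the right.

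Cells that should lack the ligands give the level of free RNA in droplets. In the telencephalic vesicle 396 erythroid cells, at a median of 5450 UMIs, held *Fgf8* at 1.04 CPM, *Fgf17* at 2.09 CPM and *Fgf18* at 0.348 CPM. Once each cell was thinned to 5000 UMIs, 0 of 233 of them held any of the 3, where the upper limit of the exact interval was 1.57%, and 163 shallower cells were left out. The thinned shares of septal progenitors were 35.3% for *Fgf8*, 63.0% for *Fgf17* and 22.7% for *Fgf18*, of 422 cells. In the septal explants only 26 erythroid cells were kept, at a median of 29045.5 UMIs. Before thinning they held 101 UMIs of *Fgf17* and 35 of *Fgf8*, and 32 mesenchyme cells held 42 and 8. The 395 subpallial progenitors held 738 and 146. These are sums over unlike numbers of cells and depths, and not levels. Subpallial progenitors, at 127 CPM of *Fgf17* and 25.2 CPM of *Fgf8*, are thus not shown to lie above free RNA. The same holds for classes of that library with lower levels, such as pallial progenitors at 43.1 and 13.0 CPM. It also holds for *Fgf17* in basal progenitors (87.9 CPM) and septal glutamatergic neurons (31.1 CPM). The part of free RNA in classes with low levels was not tested. After thinning to 8000 UMIs, 4 of 26 erythroid cells held *Fgf17* (15.4%, exact Clopper-Pearson interval 4.36 to 34.9%), so that they make a weak reference. Pallial glutamatergic neurons, at 8.23 CPM of *Fgf8* and thinned shares of 5.19% for *Fgf8* and 8.15% for *Fgf17*, served as a further one. Septal progenitors of that library had thinned shares of 50.6%, 82.3% and 25.7% for *Fgf8*, *Fgf17* and *Fgf18*, of 662 cells. *Fgf8* in GABAergic neurons (4.15% of 265 thinned cells) and *Fgf17* there (9.43%) did not stand above that reference. Both classes held places 11 and 12 of 12 for these genes, so the comparison cannot show whether either level is background. *Fgf15* in the same GABAergic neurons was found in 53.2% of thinned cells, against 3.46% of pallial glutamatergic neurons.

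Single septal progenitors differed widely in how much of a ligand they held. The *Fgf17* UMIs of a cell in the septal explants had a median of 13 and ran from 0 to 101, and *Fgf8* had a median of 2 and ran from 0 to 77. *Fgf18* had a median of 0 and a highest value of 12. *Fgf17* in the telencephalic vesicle had a median of 5 and a highest value of 95, and *Fgf8* a median of 0 and a highest value of 66, with 10% of cells at 17 or more. *Fgf15* had medians of 2 and 1, and highest values of 24 and 46. The septal gate thus took in cells with 0 *Fgf8* UMIs beside cells with many, and a cell with 0 UMIs may still hold the transcript.

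The feedback genes were then taken in the order of their roles, first the inhibitors that act on receptors and Ras. *Spry1*, a Sprouty protein that dampens signalling between receptor and MAP kinase, was highest in septal progenitors, at 243 CPM (234 to 253) in the septal explants and 169 CPM (161 to 176) in the telencephalic vesicle. Hem progenitors came next, at 183 and 75.6 CPM, and in both libraries they overlapped the class below. *Spry2*, a second Sprouty, was at 59.1 CPM (54.6 to 63.8) in septal progenitors of the septal explants, overlapping *Nkx2-1* progenitors at 49.2 CPM. In the telencephalic vesicle the 54 septal glutamatergic neurons were the highest for *Spry2*, at 64.3 CPM (43.7 to 91.3), and overlapped septal progenitors at 55.0 CPM (50.8 to 59.5). Cajal-Retzius cells, the early neurons of the cortical surface, held the third place for *Spry2* in both libraries, at 40.3 and 31.5 CPM. *Il17rd*, the membrane protein also called Sef that binds FGF receptors, was at 88.5 CPM (83.0 to 94.3) and 238 CPM (229 to 247) in septal progenitors. Its next classes were *Nkx2-1* progenitors at 45.7 CPM in the septal explants and other neurons at 80.7 CPM in the telencephalic vesicle.

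*Dusp6*, the phosphatase that inactivates the MAP kinase ERK, was at 171 CPM (163 to 179) in septal and 145 CPM (136 to 155) in hem progenitors of the septal explants. The corresponding values of the telencephalic vesicle were 94.2 CPM (88.6 to 99.97) and 51.0 CPM (48.2 to 53.9). *Etv4* was at 69.5 CPM (64.7 to 74.7) in septal progenitors of the septal explants, followed by a chain of 4 progenitor classes between 48.2 and 42.7 CPM whose neighbours overlapped. *Etv4* in the telencephalic vesicle was at 50.8 CPM (46.7 to 55.1) in septal progenitors and at 12.9 CPM or less in every other class of at least 50 cells. *Etv5* was the most even of the 10 among progenitors of the septal explants, where the 6 progenitor classes ran from 58.9 to 43.3 CPM with each overlapping the next, and basal progenitors were at 14.9 CPM. *Etv5* in the telencephalic vesicle was at 57.9 CPM (53.6 to 62.5) in septal progenitors and next highest in mesenchyme, at 28.3 CPM (24.3 to 32.7).

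Some feedback genes were also found outside the neural cells of the telencephalic vesicle. Mesenchyme, the connective tissue of meninges and vessels, with 451 cells, held *Dusp6* at 39.0 CPM and *Il17rd* at 39.5 CPM beside *Fgf8* at 2.34 CPM and *Fgf17* at 3.59 CPM. The 23 endothelial cells held *Dusp6* at 103 CPM, and the 46 macrophages held *Dusp6* at 64.9 CPM and *Etv5* at 37.8 CPM. These cells were few, and their values are given as a description.

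To ask how far the members set septal progenitors apart, their levels were divided by those of all other progenitors of the same library, 2771 cells for the septal explants and 6694 for the telencephalic vesicle. All 10 members reached the minimum of 50 UMIs in both libraries. A gene was called different at 1.5-fold, and 8.63% of 12196 genes were higher and 4.4% lower by that rule in the septal explants, against 11.3% higher and 7.69% lower of 15615 genes in the telencephalic vesicle. Of the members, 9 of 10 were higher in the septal explants and 10 of 10 in the telencephalic vesicle. Their median fold was 2.89 and 5.95, where the median over all tested genes was 1.02 and 1.03.

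The ligands of the *Fgf8* subfamily led. *Fgf8* was at 532 against 53.7 CPM in the septal explants, 9.90-fold higher (interval 9.43 to 10.4), and at 201 against 12.52 CPM in the telencephalic vesicle, 16.0-fold higher (15.03 to 17.1). *Fgf18* was 10.1-fold (8.58 to 11.99) and 13.9-fold (12.03 to 16.1) higher, and *Fgf17* 6.49-fold (6.32 to 6.68) and 17.5-fold (16.7 to 18.5) higher. By fold they took the places 6 (*Fgf18*), 7 (*Fgf8*) and 24 (*Fgf17*) among all tested genes of the septal explants, and the places 7 (*Fgf17*), 8 (*Fgf8*) and 10 (*Fgf18*) in the telencephalic vesicle. *Fgf15* was 1.86-fold (1.77 to 1.97) and 3.32-fold (3.12 to 3.53) higher.

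Among the feedback genes *Il17rd* had the highest fold in the septal explants, 3.59 (3.29 to 3.92), and stood at 6.29 (6.00 to 6.59) in the telencephalic vesicle. *Spry2* followed with 3.05 and 4.65, and *Spry1* with 2.73 and 5.60. *Etv4* was 1.85-fold (1.69 to 2.02) higher in the septal explants and 7.47-fold (6.71 to 8.31) higher in the telencephalic vesicle, the highest feedback fold there. *Dusp6* was 1.74-fold and 4.34-fold higher. *Etv5* was the exception, at 58.9 against 47.0 CPM and 1.25-fold (1.14 to 1.37) in the septal explants, and 3.32-fold (3.04 to 3.63) in the telencephalic vesicle. The explants held progenitors from around the septum and the vesicle those of a wider region, and the part of the dissection in these folds was not tested.

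**Figure D2:**
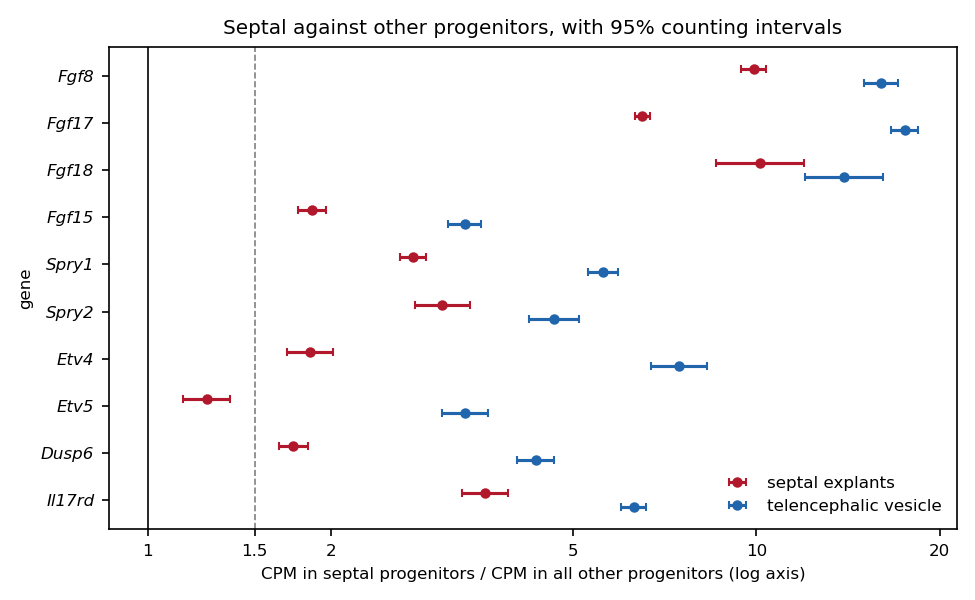
Points give the CPM of septal progenitors divided by that of all other progenitors, on a log axis, with 95% counting intervals, for the septal explants and the telencephalic vesicle; the lines mark 1 and 1.5. *Fgf8*, *Fgf17* and *Fgf18* lie between 6.49 and 17.5, and *Etv5* of the septal explants, at 1.25, is the only point under 1.5.

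The rest of the pathway was counted over lists of genes in the same comparison. The receptor genes were not raised as the ligand genes were, and 0 receptors were called higher in either library. *Fgfr1*, the main receptor of early progenitors, was within the threshold at 1.08-fold (1.01 to 1.15) and 1.35-fold (1.29 to 1.42). Of 3 receptor genes with enough UMIs in the septal explants, 1 was lower, *Fgfr2* at 0.338-fold, and *Fgfrl1* at 0.813-fold had an interval that included 1 (0.589 to 1.10). *Fgfr2* rested there on 15 UMIs in septal progenitors (1.38 against 4.07 CPM, fold interval 0.185 to 0.573). Of 4 tested in the telencephalic vesicle 3 were lower, *Fgfr3* at 0.0735-fold (0.0499 to 0.104), *Fgfr2* at 0.466-fold and *Fgfrl1*, a receptor without a kinase, at 0.580-fold. *Fgfr3* stood there at 2.71 CPM in septal progenitors and 36.9 CPM in the others. Of the 15 genes of the adaptors and the MAP kinase cascade, 14 were within 1.5-fold in each library, and *Gab1*, a docking protein, was lower in both (0.636-fold and 0.363-fold).

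Of the other secreted FGF ligands, none tested was above 9.0 CPM in septal progenitors. *Fgf3* was at 9.0 against 4.44 CPM in the septal explants (2.03-fold, 1.57 to 2.60), as the only 1 of 4 tested ligands that was higher, and at 5.24 against 0.972 CPM in the telencephalic vesicle (5.39-fold, 3.89 to 7.40). There 5 of 10 tested ligands were higher, also *Fgf2* (3.11-fold) and *Fgf9* (3.05-fold), and *Fgf10* and *Fgf22*, whose intervals included 1. The list also holds the FGF homologous factors, which act inside the cell. Of these *Fgf12* and *Fgf13* were within 1.5-fold in both libraries, at 31.4 and 127 CPM in septal progenitors of the telencephalic vesicle, where *Fgf14* was at 232 CPM (0.949-fold). Septal progenitors of the septal explants held *Fgf12* at 3.21 CPM and *Fgf13* at 40.5 CPM. *Fgf14* was there at 0.735 CPM on 8 UMIs, too few to be tested. Kits and pipelines differed, and the part of intronic reads in these levels was not tested. Of the other feedback genes and targets, 3 of 16 were higher and 0 lower in the septal explants, *Spry4* (1.98-fold), *Dusp5* (1.65-fold) and *Spred1* (1.51-fold). Of 18 in the telencephalic vesicle 8 were higher, led by *Spry4* (4.72-fold, 3.32 to 6.64), *Dusp4* (3.17-fold), *Spry3* (2.29-fold) and *Spred3* (2.21-fold), and 1 was lower, the immediate early gene *Egr1* (0.652-fold).

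Heparan sulphate proteoglycans hold FGFs at the cell surface. *Gpc3* was higher in both libraries (1.85-fold and 1.86-fold), and *Gpc1* (0.499-fold and 0.430-fold) and the sulphotransferase gene *Hs6st2* (0.587-fold and 0.555-fold) were lower in both. Of 14 such genes, 3 were higher and 3 lower in the septal explants, and 2 higher and 2 lower in the telencephalic vesicle, where 11.3% of all genes were higher and 7.69% lower. Among the anterior patterning genes, *Sp8*, which is known to act with *Fgf8* at the rostral midline, was 1.52-fold and 3.78-fold higher, and *Nr2f1*, a factor of caudal cortex, was lower in both (0.297-fold and 0.174-fold). *Nr2f1* in the septal explants rested on 8 UMIs in septal progenitors (0.735 against 2.47 CPM, fold interval 0.125 to 0.607). *Six3*, *Emx2*, *Shh* and *Wnt8b* of that list took part in the gates and are not read. Genes of the response to dissociation, such as *Fos* and *Jun*, were called higher in 0 of 7 and 1 of 8 cases (*Hspa1a*), and lower in 0 and 1 (*Fosb*).

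The ligands were next counted together in single septal progenitors. In the septal explants 241 of 720 cells held *Fgf8*, *Fgf17* and *Fgf18* (33.5%, interval 30.0 to 37.1%), 176 held *Fgf8* and *Fgf17* (24.4%), 190 held *Fgf17* alone (26.4%), 8 held *Fgf8* alone (1.11%) and 0 held *Fgf18* alone, which allows up to 0.511%. None of the 3 was found in 93 cells (12.9%). All 3 were held by 137 of 444 cells of the telencephalic vesicle (30.9%, interval 26.6 to 35.4%), and 58 held *Fgf8* and *Fgf17* (13.1%), 123 held *Fgf17* alone (27.7%), 4 held *Fgf8* alone, 4 held *Fgf18* alone and 92 held none (20.7%). Within this class nearly all cells with *Fgf8* also held *Fgf17*, which was found in 619 of all 720 cells and 339 of all 444. Of the *Fgf8*-positive septal progenitors, 417 of 425 (98.1%) in the septal explants and 195 of 204 (95.6%) in the telencephalic vesicle also held *Fgf17*, whereas 67.4% and 57.5% of the *Fgf17*-positive cells held *Fgf8*. The overlap was lower over all neural cells, where 72.9% and 68.0% of the *Fgf8*-positive cells held *Fgf17*. *Fgf8* alone was found in 41 of 297 *Nkx2-1* progenitors of the septal explants (13.8%) and in 65 of 1145 hem progenitors of the telencephalic vesicle (5.68%). A transcript that is captured more often is found in more cells, so that the nesting in part follows the UMI numbers, and its share of the pattern was not tested.

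**Figure D3:**
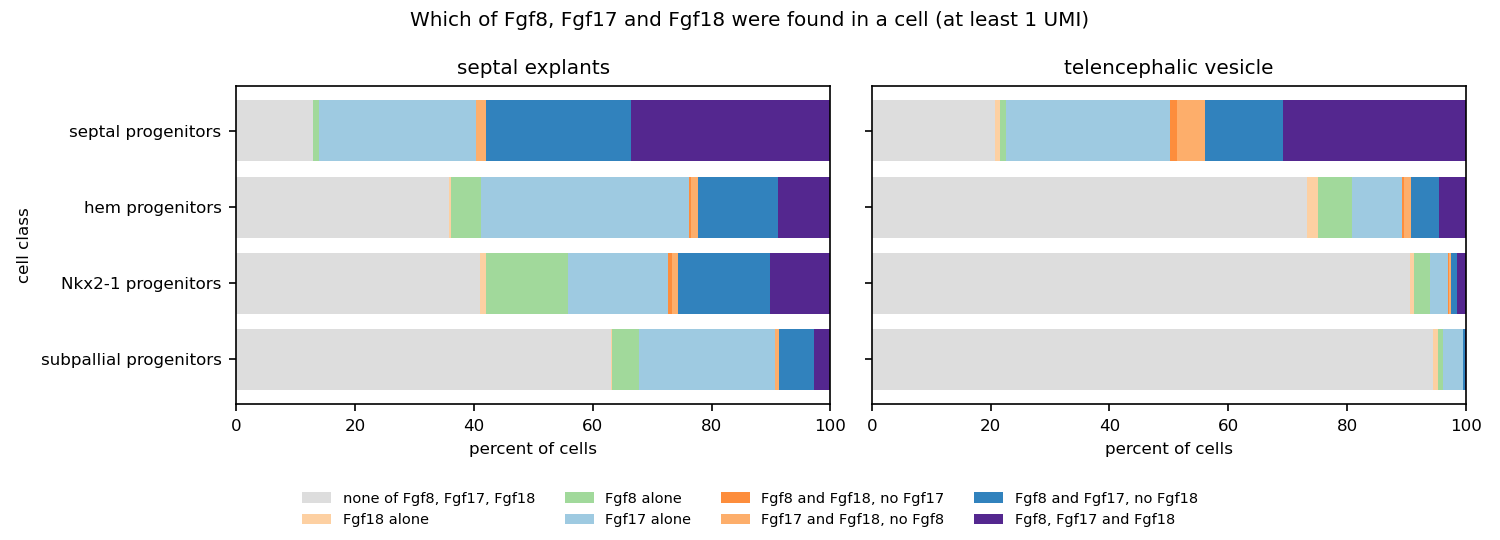
Bars give the percentage of cells of a class that held each combination of *Fgf8*, *Fgf17* and *Fgf18* (at least 1 UMI), for 4 progenitor classes of the septal explants (left) and the telencephalic vesicle (right). In septal progenitors all 3 were found in 33.5% and 30.9% of cells, and *Fgf8* alone in 1.11% and 0.901%.

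Deep cells hold a UMI of any gene more often, and so the cells with both of a pair were compared with the number given by the separate shares within each class and 1 of 10 ranges of depth. Over all 5301 neural cells of the septal explants, *Fgf8* and *Fgf17* shared 808 cells where 606 were given by the shares, a ratio of 1.33 (1.24 to 1.43). *Fgf8* and *Fgf18* had a ratio of 1.84 (1.66 to 2.04) and *Fgf17* and *Fgf18* of 1.37 (1.24 to 1.51). In 9802 neural cells of the telencephalic vesicle the ratios of these pairs were 2.01 (1.82 to 2.21), 2.58 (2.28 to 2.90) and 1.88 (1.67 to 2.1003). *Fgf15* stood apart, with ratios between 1.05 and 1.10 to the 3 other ligands in the septal explants and between 1.10 and 1.17 in the telencephalic vesicle. Intervals still lay above 1 for *Fgf17* and *Fgf15* in both libraries (1.03 to 1.17 and 1.02 to 1.25). The same held for *Fgf8* and *Fgf15* in the telencephalic vesicle (1.02 to 1.32), and the other pairs with *Fgf15* included 1. Within septal progenitors alone, *Fgf8* and *Fgf18* had ratios of 1.55 (1.36 to 1.75) and 1.76 (1.479 to 2.07), and each pair with *Fgf15* had an interval that included 1. *Fgf8* and *Fgf17* were at 1.13 (1.02 to 1.24) and 1.25 (1.08 to 1.44) there, and *Fgf17* and *Fgf18* at 1.15 (1.01 to 1.30) and 1.22 (1.04 to 1.43). These ratios were near the highest possible value, which the intervals do not take into account. *Fgf17* was already held by 417 of 425 *Fgf8*-positive and 253 of 253 *Fgf18*-positive cells of the septal explants. For the telencephalic vesicle these were 195 of 204 and 158 of 167. They cannot be ranked against the ratio of *Fgf8* and *Fgf18*.

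The proportion of *Fgf17* to *Fgf8* UMIs changed from class to class. Both genes were counted in the same cells, so that the proportion can be compared across classes of a library whatever the capture of each. In the septal explants it was 2.24 (2.18 to 2.32) in septal progenitors, 4.40 (4.05 to 4.79) in hem progenitors, 5.05 (4.23 to 6.08) in subpallial progenitors and 1.25 (1.12 to 1.39) in *Nkx2-1* progenitors. Erythroid cells and mesenchyme of that library were at 2.89 (1.95 to 4.37) and 5.25 (2.43 to 12.9). The part of free RNA in these proportions was not tested. Nor was that of the loose hem gate in the septal explants, where 116 of 340 cells lay in a hem cluster. The telencephalic vesicle had 1.69 (1.61 to 1.78) in septal, 1.61 (1.481 to 1.74) in hem, 2.60 (1.53 to 4.60) in subpallial and 1.02 (0.853 to 1.21) in *Nkx2-1* progenitors. *Nkx2-1* progenitors thus had the lowest proportion of the 6 progenitor classes in both libraries, and hem and septal progenitors overlapped only in the telencephalic vesicle. Basal progenitors, which are not among the 6, were at 3.18 (2.56 to 3.97) in the septal explants. In the telencephalic vesicle they were at 0.828 (0.564 to 1.21), which overlapped *Nkx2-1* progenitors.

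Feedback genes were compared between septal progenitors with and without a UMI of *Fgf8*, *Fgf17* or *Fgf18*, 627 against 93 cells of the septal explants and 352 against 92 of the telencephalic vesicle. By the same 1.5-fold rule 13.1% of 9736 genes were higher and 4.51% lower in ligand-positive cells of the septal explants, and 8.49% higher and 2.78% lower of 11113 genes in the telencephalic vesicle. Of the 6 feedback genes, 4 were higher in each library, *Spry1*, *Spry2*, *Il17rd* and *Etv4*. *Spry1* was at 268 against 77.2 CPM in the septal explants (3.47-fold, 2.87 to 4.25) and at 194 against 59.8 CPM in the telencephalic vesicle (3.24-fold, 2.71 to 3.91). *Il17rd* was 4.08-fold (2.90 to 5.92) and 2.47-fold (2.16 to 2.84) higher, and *Spry2* 3.27-fold (2.24 to 4.97) and 2.99-fold (2.21 to 4.15). *Etv4* was 1.64-fold (1.27 to 2.16) and 1.68-fold (1.31 to 2.19) higher.

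*Dusp6* stayed under the threshold in both libraries, at 1.44-fold (1.23 to 1.70) and 1.30-fold (1.10 to 1.55), and *Etv5* was at 1.06-fold (0.836 to 1.36) and 0.953-fold (0.785 to 1.16), with intervals that exclude 1.5. Median depths were 13532 with and 13686 UMIs without a ligand UMI in the septal explants, and 13477.5 and 10589.5 in the telencephalic vesicle. When cells were divided by *Fgf15* alone, 3.58% of all genes were higher and 3.79% lower in the septal explants, against 7.99% and 4.01% in the telencephalic vesicle, and 0 of 6 feedback genes were higher. *Spry1* was then at 0.969-fold and 0.708-fold, and *Spry2*, at 0.650-fold in the telencephalic vesicle, was called lower. Other lists moved with the ligands: genes of the hem list were at 221 CPM with and 64.5 CPM without a ligand UMI in the septal explants and at 193 and 110 CPM in the telencephalic vesicle, the subpallial list at 176 and 387 CPM and at 121 and 228 CPM, and *Six3* at 256 and 130 CPM and at 307 and 168 CPM. The septal list, which set the gate, was at 1535 and 1234 CPM and at 1651 and 1203 CPM. The progenitor list was at 2929 and 3891 CPM and at 2340 and 2727 CPM. The part of these lists in the difference was not tested.

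The same genes were followed over the number of ligand UMIs per cell. *Spry1* in the septal explants was at 77.2 CPM in cells with 0 ligand UMIs, 101 CPM with 1 or 2, 184 CPM with 3 to 9 and 310 CPM (297 to 323) with 10 or more. For the telencephalic vesicle these were 59.8, 76.2, 141 and 257 CPM (244 to 272) in the same groups. *Il17rd* was at 24.1, 28.7, 40.6 and 120 CPM in the septal explants and at 108, 110, 197 and 352 CPM in the telencephalic vesicle, so that most of its difference lay in cells with many ligand UMIs. *Spry2* in the septal explants was at 27.7 CPM both with 1 or 2 and with 3 to 9 UMIs and at 77.9 CPM with 10 or more. *Etv5* stayed between 51.1 and 61.7 CPM in all 8 groups of both libraries. Groups differed in depth in the telencephalic vesicle, where the 47 cells with 1 or 2 ligand UMIs had a median of 24010 UMIs.

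**Figure D4:**
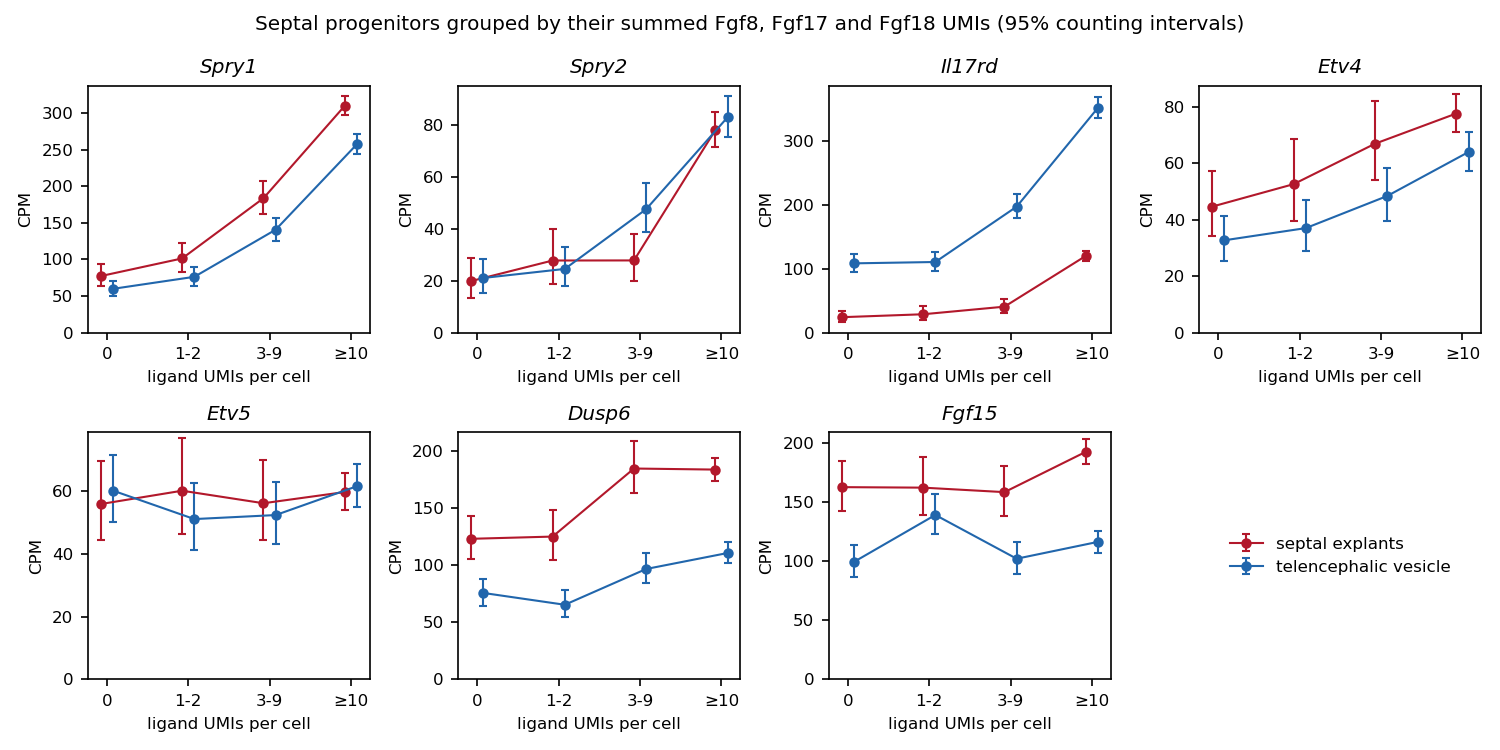
Points give the CPM of each gene, with 95% counting intervals, in septal progenitors grouped by their summed *Fgf8*, *Fgf17* and *Fgf18* UMIs (0, 1 to 2, 3 to 9, 10 or more) in the septal explants and the telencephalic vesicle. *Spry1* goes from 77.2 to 310 CPM and from 59.8 to 257 CPM, whereas *Etv5* stays between 51.1 and 61.7 CPM.

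The difference between cells with and without a ligand UMI was not limited to septal progenitors. *Spry1* was at least 1.83-fold higher with a ligand UMI in each of the 6 progenitor classes of the septal explants, and at least 2.28-fold higher in each of the 6 of the telencephalic vesicle. Ligand-positive cells were the deeper ones in some of these classes: the 48 among subpallial progenitors of the telencephalic vesicle, where the fold was 2.28, had a median of 16920 UMIs against 9739, and the 70 among pallial progenitors 36912 against 12104. In hem progenitors of the septal explants 5.66% of 8292 genes were higher and 3.04% lower with a ligand UMI, and 4 of 6 feedback genes were higher, all but *Etv5* (1.10-fold) and *Dusp6* (1.15-fold). In those of the telencephalic vesicle 5.33% of 12490 genes were higher and 2.69% lower, and the 6 feedback genes were all higher, from *Etv5* at 1.60-fold (1.36 to 1.89) to *Spry1* at 3.71-fold (3.39 to 4.08). *Nkx2-1* progenitors, where 4.73% of 7081 genes were higher and 2.33% lower in the septal explants and 7.46% and 4.01% of 11743 in the telencephalic vesicle, had all 6 higher in both libraries, with *Etv5* at 1.86-fold (1.32 to 2.64) and 3.26-fold (2.48 to 4.24). *Etv5* thus differed by ligand in these 2 classes of the telencephalic vesicle and not in septal progenitors, where its level without a ligand UMI was 60.2 CPM against 20.6 CPM in hem and 10.2 CPM in *Nkx2-1* progenitors. The difference between classes was not tested.

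Neural cells were then ordered by log2((neuronal UMIs + 1)/(progenitor UMIs + 1)), over lists that hold no member, and divided into 10 bins of equal size from progenitor to neuron. *Fgf8* and *Fgf17* were highest in the middle. *Fgf8* in the septal explants was at 168 CPM in bin 1, 252 CPM in bin 6, 148 CPM in bin 7, 27.9 CPM in bin 8 and 7.74 CPM in bin 10, and *Fgf17* at 364, 528, 363, 36.6 and 11.1 CPM in the same bins. Septal progenitors made up 31.1% of bin 6, their highest share. *Fgf8* in the telencephalic vesicle was at 52.4 CPM in bin 1, 63.3 CPM in bin 8 and 1.53 CPM in bin 10, and *Fgf17* was highest in bin 7 at 95.4 CPM, where septal progenitors had their highest share of 15.2%. The share of septal progenitors moved with the level, and its part was not tested.

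Between the first and last bins 24.6% of 10627 genes were at least 1.5-fold higher in the first and 28.9% in the last in the septal explants, against 30.7% and 25.5% of 12430 genes in the telencephalic vesicle. Of the members, 8 of 10 and 9 of 10 were higher in the first bin. *Fgf17* went from 364 to 11.1 CPM (32.9-fold, 26.1 to 42.0) and from 54.7 to 1.91 CPM (28.6-fold, 17.2 to 51.4). *Etv5* went from 55.8 to 4.55 CPM (12.3-fold) and from 19.2 to 1.66 CPM (11.6-fold), and *Etv4* fell 8.86-fold and 7.98-fold. *Dusp6* fell 1.97-fold (1.74 to 2.24) in the septal explants, to 52.7 CPM, and 5.98-fold (4.39 to 8.32) in the telencephalic vesicle, to 5.74 CPM. *Spry2* was the member closest to equal levels in both bins, at 21.5 and 19.4 CPM in the first and last bins of the septal explants (1.10-fold, 0.876 to 1.40) and at 14.5 and 15.2 CPM in the telencephalic vesicle (0.957-fold, 0.756 to 1.22). *Fgf15* was lower in the first than in the last bin of the septal explants (45.4 and 80.1 CPM, 0.567-fold) after a highest level of 164 CPM in bin 6, and higher in the first in the telencephalic vesicle (22.2 and 11.2 CPM, 1.98-fold).

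**Figure D5:**
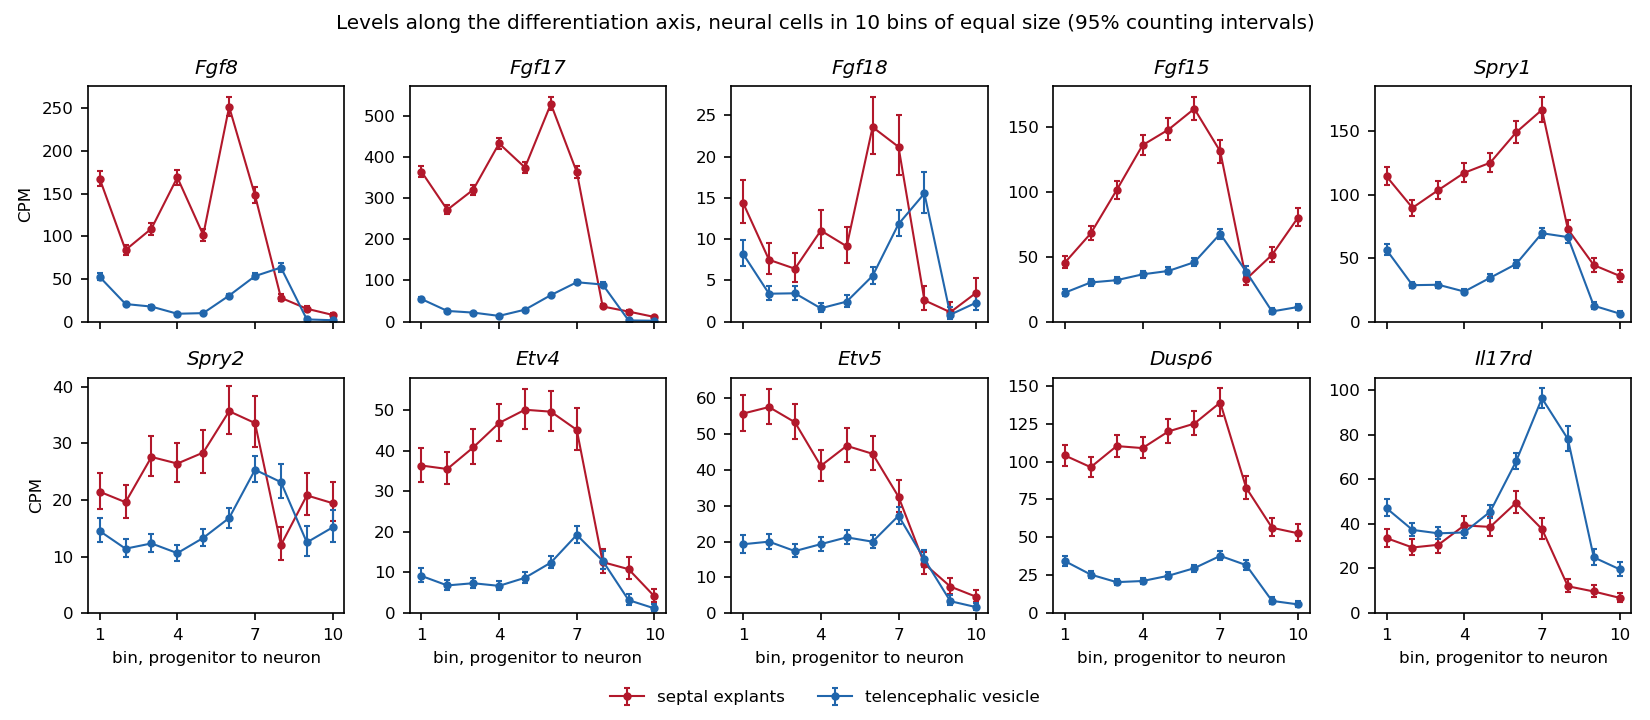
Points give the CPM of each gene, with 95% counting intervals, in 10 bins of equal size from progenitor (bin 1) to neuron (bin 10), for all neural cells of the septal explants and the telencephalic vesicle. *Fgf8* and *Fgf17* are highest in bins 6 to 8 (252 and 528 CPM in bin 6 of the septal explants), and *Spry2* is close to equal in bins 1 and 10.

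In the septal lineage alone, septal progenitors and septal glutamatergic neurons, the middle peak was absent. *Fgf8* in the septal explants was at 884 CPM in the first bin and between 275 and 616 CPM in bins 2 to 7. It dropped to 12.6 CPM in bin 8, the first that held neurons only. *Fgf17* was at 1663 CPM in the first bin, 984 CPM in bin 7 and 13.5 CPM in bin 8. *Spry1* changed over the same step from 267 to 46.0 CPM and *Dusp6* from 200.4 to 65.8 CPM. The step lies between gated classes with median log2 ratios of -2 and 3.52, and cells between them were left out. Among those, neurons of no named type had a median log2 ratio of 2.13 and a median septal score of 12.8. They held *Fgf8* at 98.4 CPM and *Fgf17* at 134 CPM. The septal glutamatergic neurons of the septal explants, taken as a whole class, held 26.3 and 31.1 CPM. How abrupt the fall is was therefore not tested. In the telencephalic vesicle the last bin held 0 UMIs of *Fgf8* and *Fgf17*, which were at 470.3 and 467 CPM in the first. Set against a floor of 3 counts in the last bin, these were 65.8-fold and 65.3-fold higher. The lower limits of the fold intervals were 53.2 and 52.9. These folds hold for the last bin only. All 54 septal glutamatergic neurons of that library together held *Fgf8* at 27.0 CPM (14.4 to 46.1) and *Fgf17* at 18.7 CPM (8.53 to 35.4). *Spry2* was at 43.2 and 52.4 CPM in the first and last bins, of 49 cells each.

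The E11.5 embryos of the septal explants carry *YFP*, and 487 of 720 septal progenitors held at least 1 *YFP* UMI (67.6%, interval 64.1 to 71.0%). A cell without one may come from either age, and a *YFP* UMI is not a sure mark of E11.5: 20 of the 54 septal progenitors with *tdTomato*, which the E12.5 embryos carry, also held *YFP*, as did 26 of 26 erythroid cells. *tdTomato* was at 3.93 CPM in *YFP*-positive and 22.7 CPM in *YFP*-negative cells. By the 1.5-fold rule 2.89% of 9736 genes were higher and 1.35% lower in *YFP*-positive cells, and 1 of the 10 members was called, *Fgf18* at 52.7 against 32.2 CPM (1.63-fold, 1.32 to 2.05). *Fgf8* was at 582 against 415 CPM (1.40-fold, 1.32 to 1.49), *Fgf17* at 1.08-fold and *Fgf15* at 0.879-fold (0.799 to 0.967). The 6 feedback genes lay between 0.893-fold (*Spry2*) and 1.19-fold (*Etv4*). In *Nkx2-1* progenitors both *Fgf8* and *Fgf17* had the other direction, with *Fgf8* at 0.646-fold (0.549 to 0.762) and *Fgf17* at 0.681-fold (0.588 to 0.789), whereas *Fgf18* was at 0.777-fold (0.430 to 1.45) and *Fgf15* at 0.779-fold (0.686 to 0.887). *Fgf8* was also lower with *YFP* in subpallial (0.572-fold, 0.407 to 0.805) and pallial progenitors (0.678-fold, 0.510 to 0.905). In subpallial progenitors *Fgf17* was at 0.823-fold (0.707 to 0.961) and *Fgf18*, on 8 and 11 UMIs, at 0.334-fold (0.116 to 0.910). In pallial progenitors *Fgf17* was at 2.31-fold (1.89 to 2.83), 52.9 against 22.9 CPM, and *Fgf15* at 2.26-fold (1.68 to 3.08). No share over all genes was taken outside septal progenitors. Median depths were 14123 and 12319 UMIs with and without *YFP* in septal progenitors, and age and genotype cannot be told apart.

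Genes with the most similar pattern to each member were found over the 12 classes that had at least 50 cells in both libraries, by the smaller of the 2 Pearson correlations of log2(CPM + 1) among 12772 genes. The correlations are descriptions over classes that share a library, and they carry no p. A member led the lists of *Fgf8* and *Fgf18*, each of which was nearest to the other: the gene most like *Fgf8* was *Fgf18* (r of 0.96 and 0.93), then *Fgf17* (0.92 and 0.97), and *Spry1* was at place 5 (0.92 and 0.96). *Fgf17* was most like the zinc finger gene *Glis3* (0.99 and 0.96), which also led the list of *Spry1* (0.92 and 0.96). The paired box genes *Pax2* and *Pax5* stood among the 5 nearest to *Fgf18*, and *Pax5* second for *Spry2* (0.88 and 0.93) behind *Col26a1*. *Il17rd* was nearest to *Fgf17* (0.93 and 0.89). *Fgf15* was nearest to the chloride channel gene *Ano1* (0.95 and 0.98), with *Nkx2-3* and *Sox1* next, and its r to *Fgf8* was 0.43 and 0.40. Its list also held Gm26793, which overlaps *Fgf15* on the other strand, and whether any misassigned reads enter that value was not tested. *Etv5* was nearest to *Col4a5* and *Aldh2*, and *Dusp6* to Gm29478 and *Mgst1*, and neither list of 5 held another member.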

How the data were processed

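Single cell suspensions of embryonic forebrain were run on a 10x Genomics controller, with the Single Cell 3′ kit v2 (septal explants) and v3.1 (telencephalic vesicle). The authors deposited raw counts, as UMIs per gene and barcode, made with Cell Ranger 2.1.1 and 7.1.0 on mm10 (the submitters' processing notes), with *YFP* and *tdTomato* added for the septal explants. Whether intronic reads were counted is not given in the sources used here. From these counts, cells within 3 MAD of the median mitochondrial share were kept, and doublets were removed with Scrublet in scanpy 1.11.5 at a score above 0.25, a threshold chosen after the data were seen because the automatic one was unstable (79 and 876 cells). Classes were gated on marker UMIs per 10000, with thresholds also set after the data were seen, and 877 cells under 2000 UMIs in the telencephalic vesicle stayed without a class. Poisson, Clopper-Pearson and conditional binomial intervals were computed with scipy 1.17.1 on Python 3.11.15. Folds used genes with at least 50 UMIs. Thinning was to 8000 and 5000 UMIs. The computations were tested on simulated data. All 10 members are named, pathway genes by their largest folds, and for each member the 5 genes most alike across classes. The members and lists were chosen with earlier results of these data known. Alternatives changed the gates, clustering, depth, filters and bins.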

Additional observations from a re-analysis of the deposited data

Results flagged for a closer look

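Added sequences outside the comparisons were found at low levels. In the septal explants 24 UMIs of a sequence named IRESCRE lay in 22 of 5365 kept cells, and in the telencephalic vesicle, from wild-type embryos, 11 UMIs of a sequence named LacZ lay in 9 of 11595 kept cells, both above the 3 counts that a count of 0 allows. *Bmp4* had opposite directions in the 2 libraries, with septal over other progenitors at 3.39-fold (interval 2.60 to 4.41) in the septal explants and 0.363-fold (0.292 to 0.446) in the telencephalic vesicle. *Fgf15* had opposite directions between the first and last bins of differentiation, at 0.567-fold (0.496 to 0.647) in the septal explants and 1.98-fold (1.56 to 2.55) in the telencephalic vesicle. The differences between the libraries were not tested.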

How the results depend on the processing

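No paired analysis was possible because each condition has 1 library and no result comes from a replicated test. Of 61 alternatives for the 13 leading results, 40 stayed within the counting interval or 1.5-fold, 21 moved and 0 reversed. Of 476 for 112 other values, 295 stayed, 175 moved and 6 reversed. *Fgf8* in septal progenitors was 532 CPM in the septal explants and 676 with each gate 1 UMI higher, 768 with Leiden clusters and 710 without haemoglobin, mitochondrial and ribosomal genes. It was 201 CPM in the telencephalic vesicle, and 224, 153 and 250.03. The share of these cells with *Fgf8* was 59.0% and 70.1% with the higher gate, 76.8% with clusters, 50.6% thinned and 50.8% at 2 or more UMIs, and 45.9%, 54.2%, 34.2%, 35.3% and 39.4% in the telencephalic vesicle. The *Fgf8* and *Fgf17* ratio of 1.33 was 2.04 without strata, 1.56 at 2 or more UMIs and 1.15 with clusters, and that of 2.01 was 7.34 and 2.23. With cells divided by *Fgf15* alone, 0 feedback genes were called higher in either library, *Spry2* was called lower in the telencephalic vesicle, and the fold reversed for *Spry1* (0.969 and 0.708), *Spry2* (0.839 and 0.650) and *Il17rd* (0.832 and 0.791). Without a filter on low counts 16.9% of genes were higher and 17.2% lower in septal progenitors of the septal explants, and 17.2% and 25.9% in the telencephalic vesicle. The causes were not tested. Only 385 of 720 and 382 of 444 gated septal progenitors lay in septal clusters. For hem progenitors these were 116 of 340 and 928 of 1145 in hem clusters. Leaving out a replicate was not possible. Counting intervals do not cover the spread between embryos, and depth limits *Fgf18*, with 507 and 423 UMIs in septal progenitors.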
